A study of Mus musculus with 18 samples.

Results

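The lid of the 19S regulatory particle was followed here through the transcripts of its 9 subunits in mouse cortical neuronal cultures that overexpressed a catalytic subunit of the proteasome. The subunits were chosen by name, as the lid's known components: Psmd14, Psmd7, Psmd3, Psmd6, Psmd8, Psmd11, Psmd12, Psmd13 and Sem1. All 9 were found among the 43629 gene IDs of the count table, and all 9 were among the 15671 genes with enough counts to test. The series holds 18 poly(A)-selected RNA libraries in 3 groups of 6. One group overexpressed Psmb8, the catalytic subunit that takes the place of Psmb5 in the immunoproteasome, the form of the proteasome that interferon induces. Another overexpressed Psmb5 itself, the constitutive subunit with chymotrypsin-like activity. The control group is labelled mSc, read here as the fluorescent protein mScarlet. All cultures had received a lentivirus 7 days into culture and were harvested 10 days later. The treatment field of every library, controls included, names an Ifng construct, which differs from the treatment tags used here for grouping. The promoter that drives the transgenes, and the age and strain of the animals, are unknown here. The labels number the libraries of each group 1 to 6 without saying whether a number is an animal, a dissection or a culture, so a p-value here reflects the spread among these libraries.

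The 26S proteasome degrades proteins that carry ubiquitin chains. Its 20S core is a barrel with the proteolytic sites inside, and the 19S regulatory particle caps the barrel. A base of ATPases unfolds the substrate, and the lid sits beside the base and removes the ubiquitin chain while the substrate enters. Most lid subunits share a PCI domain, through which they pack into a horseshoe, and a pair of them carry an MPN domain. The COP9 signalosome and the translation factor eIF3 are built on the same plan. In neurons, proteasomes turn over synaptic and misfolded proteins, and cells whose proteasomes are inhibited are known to raise the transcripts of many subunits together through the transcription factor encoded by Nfe2l1.

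Library totals ran from 16091906 to 18630396 counts in Psmb8 libraries, from 16055974 to 19640543 in Psmb5 libraries and from 15337511 to 21074229 in mSc libraries. Psmb8 had 546 to 1056 CPM (counts per 1000000 counts in tested genes) in Psmb8 libraries, 0.488 to 14.6 CPM in Psmb5 libraries and 0.840 to 19.4 CPM in mSc libraries. Psmb5 had 238 to 561 CPM in Psmb5 libraries, 45.8 to 51.1 CPM in Psmb8 libraries and 41.0 to 45.1 CPM in mSc libraries, so both transgenes went with their labels. The cultures matched their neuronal label, with 10 neuron markers summing to at least 4267 CPM in every library. Astrocyte markers summed to 1395 to 4204 CPM in Psmb8 libraries, 1503 to 4178 CPM in Psmb5 libraries and 1298 to 4979 CPM in mSc libraries, and the replicate 1 libraries were highest in each group. Of 8 microglia markers, 6 (Cx3cr1, P2ry12, Tmem119, Csf1r, Itgam and C1qa) were under 1 CPM in every library. The others, Cd68 and Aif1, averaged 26.1 and 1.37 CPM over the 18 libraries. Interferon-stimulated genes were high in replicates 3 and 6 of every group, so counts that lead the results are also given without those numbers. Libraries that share a number moved together across genes, and fits with the number as a block are given beside those without it.

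The start regions of 4 lid genes are printed below to show letters that several lid genes share upstream and that the Sem1 window lacks. They are RefSeq windows on GRCm38.p6, each running 5′ to 3′ on the gene's own strand from 250 bases before the start site to 50 bases after it. Capitals mark CTTCCG or its reverse complement CGGAAG, the core letters of sites for ETS-type factors. The windows lie at chr2:61711444-61711743 (plus strand, Psmd14), chr11:107479278-107479577 (plus strand, Psmd12), chr11:80428365-80428664 (plus strand, Psmd11) and chr6:6578609-6578908 (minus strand, Sem1).
Psmd14: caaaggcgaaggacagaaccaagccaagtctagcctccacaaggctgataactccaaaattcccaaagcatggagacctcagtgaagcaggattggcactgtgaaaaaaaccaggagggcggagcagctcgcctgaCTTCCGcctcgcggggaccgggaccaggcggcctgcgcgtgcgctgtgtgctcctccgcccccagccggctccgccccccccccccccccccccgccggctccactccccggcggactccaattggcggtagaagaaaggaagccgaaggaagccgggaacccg
Psmd12: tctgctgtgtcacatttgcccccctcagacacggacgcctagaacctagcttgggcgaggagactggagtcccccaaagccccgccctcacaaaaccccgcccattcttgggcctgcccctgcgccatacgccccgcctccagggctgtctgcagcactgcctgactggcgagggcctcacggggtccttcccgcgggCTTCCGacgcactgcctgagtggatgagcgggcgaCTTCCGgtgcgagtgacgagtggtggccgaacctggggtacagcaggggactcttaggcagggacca
Psmd11: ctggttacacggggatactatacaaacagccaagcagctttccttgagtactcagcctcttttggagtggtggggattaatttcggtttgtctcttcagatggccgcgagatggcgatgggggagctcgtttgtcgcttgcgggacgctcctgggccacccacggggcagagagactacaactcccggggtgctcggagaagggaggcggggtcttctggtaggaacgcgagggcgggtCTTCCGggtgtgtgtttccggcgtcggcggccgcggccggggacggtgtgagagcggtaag
Sem1: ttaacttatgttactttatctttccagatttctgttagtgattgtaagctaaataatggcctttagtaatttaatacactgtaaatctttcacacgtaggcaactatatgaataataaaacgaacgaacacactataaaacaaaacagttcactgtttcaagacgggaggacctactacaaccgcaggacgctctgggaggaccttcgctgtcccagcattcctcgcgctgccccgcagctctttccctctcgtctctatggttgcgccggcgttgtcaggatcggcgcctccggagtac

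CTTCCG, read on both strands, was present in 6 of the 7 lid windows in the table, those of Psmd14, Psmd12, Psmd11, Psmd6, Psmd8 and Psmd13, and was not among the letters of the Sem1 window. It was present in 16.9% of 32851 windows of the same length over all genes, and in 61.9% of 21 windows of the other proteasome subunits. This motif was chosen after the windows had been read. Of 3 motifs searched by name, GGGCGG (the Sp box) was present in 5 of 7 lid windows against 35.7% of all windows, and CCAAT (the NF-Y box) in 1 of 7, that of Psmd14, against 37.4%. TGACNNNGC, the core of the antioxidant response element bound by the Nfe2l1 product, was present in the Psmd12 and Sem1 windows and in 12.4% of all windows. No match of CTTCCG overlapped a match of another motif in the 4 printed windows. A match is a run of letters in these windows and no measurement of binding.

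Lid transcripts lay higher in Psmb8 cultures: for 6 of the 9 subunits the group mean was 8.88% to 12.3% above that of mSc cultures, but these differences did not pass edgeR's test over all genes. The comparison asks how an immunoproteasome subunit affects neuronal transcripts. The 9 subunits summed to 665 to 761 CPM in Psmb8 libraries, 610 to 680 CPM in Psmb5 libraries and 604 to 676 CPM in mSc libraries. Every lid subunit had a log2 fold change above 0 in Psmb8 against mSc cultures in the fit with the replicate block, as did 50.4% of all tested genes. The median over the lid was 0.13, against 0.000814 over all tested genes, whose 5th and 95th percentiles were -0.25 and 0.20. No lid subunit passed the adjusted threshold of 0.05 in edgeR's quasi-likelihood test with Benjamini-Hochberg adjustment, with or without the block. With the block, 0.115% of all tested genes were called higher and 0.211% lower, and without it 0.00638% were called higher. DESeq2 with the block called 2 of 9 higher, Psmd3 and Psmd11, against 0.542% of the genes it gave an adjusted p. At an unadjusted p under 0.05 with the block, 7 of 9 were higher and 0 of 9 lower, against 5.44% and 5.25% of all tested genes; without the block it was 5 of 9 against 1.1%. In bulk RNA, a larger share of the cells that express a subunit and more of its RNA per cell cannot be told apart.

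**Figure D1:**
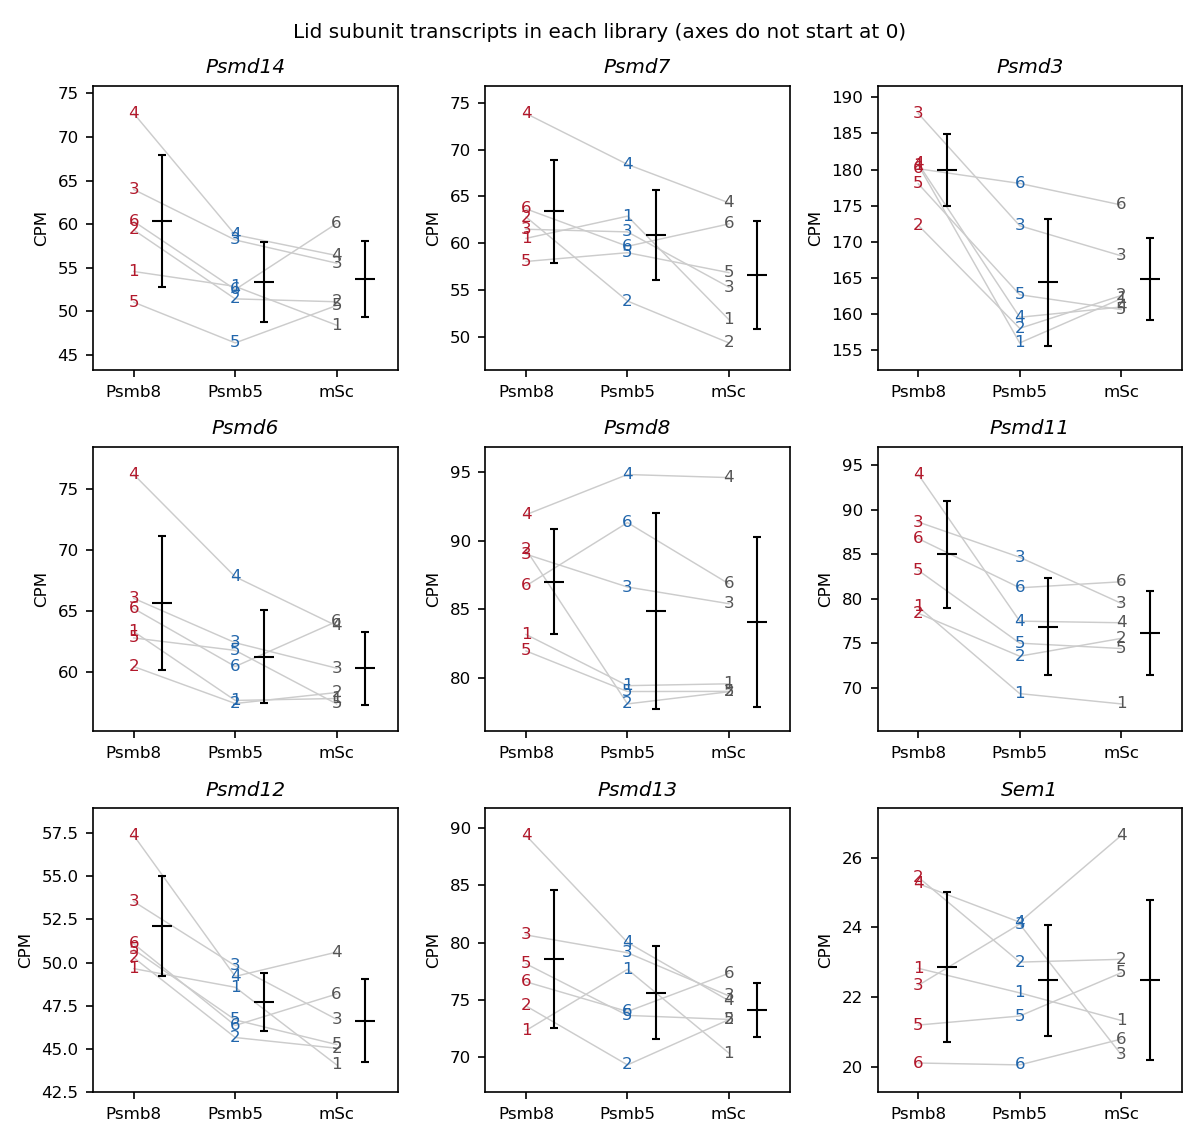
CPM (vertical axes) of each lid subunit in the 18 libraries, with Psmb8 left, Psmb5 in the middle and mSc right; points are libraries and bars are the mean and SD (n = 6). The groups overlap in every panel, and replicate 4 is the highest Psmb8 library for each subunit except Psmd3 and Sem1.

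The MPN pair forms the deubiquitinating module. Psmd14 (ENSMUSG00000026914, GRCm38 chr2:61711694-61800376, plus strand) is the metalloprotease that cuts the ubiquitin chain off the substrate. It had a lowest, median and highest value of 51.0, 59.8 and 72.7 CPM in Psmb8 libraries, 46.4, 52.7 and 58.8 CPM in Psmb5 libraries and 48.4, 53.3 and 60.1 CPM in mSc libraries. The groups overlapped, and 3 of the 6 Psmb8 libraries, replicates 3, 4 and 6, lay above every mSc library, replicate 6 by a narrow margin. The Psmb8 mean was 12.3% above the mSc mean. The blocked edgeR fit gave a log2 fold change of 0.16 with an SE of 0.05, and its quasi-likelihood test a Benjamini-Hochberg adjusted p of 0.166. All 6 numbered pairs were higher in the Psmb8 library, but by 0.37 in pair 4 and by only 0.01 in pairs 5 and 6 on the log2 scale.

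Psmd7 (ENSMUSG00000039067, chr8:107580381-107588464, minus strand) is the catalytically inactive MPN partner that holds Psmd14 in place. It had 58.0, 62.1 and 73.9 CPM (lowest, median, highest) in Psmb8 libraries, 53.8, 60.4 and 68.4 CPM in Psmb5 libraries and 49.3, 56.1 and 64.3 CPM in mSc libraries. The groups overlapped, and replicate 4 was the highest library in each of them. The mean was 11.97% higher in Psmb8 than in mSc cultures (blocked log2 fold change 0.16, SE 0.04, adjusted p 0.135 by edgeR's quasi-likelihood test), again in 6 of 6 pairs. Psmd7 was also the only lid subunit with an unadjusted p under 0.05 in Psmb5 against mSc cultures, with a log2 fold change of 0.10 (SE 0.04).

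Among the PCI subunits, Psmd11, Psmd12 and Psmd3 had the smallest p-values in Psmb8 against mSc cultures. Psmd11 (ENSMUSG00000017428, chr11:80428615-80473248, plus strand) reaches from the lid to the base and the core and helps to hold the assembled particle together. It had 78.4, 85.0 and 94.0 CPM in Psmb8 libraries, 69.3, 76.2 and 84.7 CPM in Psmb5 libraries and 68.2, 76.4 and 81.9 CPM in mSc libraries, again as the lowest, median and highest. The groups overlapped, and 4 of the 6 Psmb8 libraries lay above every mSc library. The mean was 11.6% higher than in mSc cultures, with a blocked log2 fold change of 0.16 (SE 0.04) and an adjusted p of 0.0579 by edgeR, which ranked it 69 of 15671 by p. DESeq2 with the block gave an adjusted p of 0.0304, and that was the lowest over all alternatives.

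Psmd12 (ENSMUSG00000020720, chr11:107479484-107504362, plus strand) is a PCI subunit of the horseshoe. It had 49.6, 50.9 and 57.4 CPM in Psmb8 libraries, 45.7, 47.6 and 49.8 CPM in Psmb5 libraries and 44.1, 46.0 and 50.6 CPM in mSc libraries. The Psmb8 range began near the top of the other groups' ranges, and 4 of the 6 Psmb8 libraries lay above every mSc library. The mean was 11.7% higher than in mSc cultures (blocked log2 fold change 0.16, SE 0.04, adjusted p 0.0732 by edgeR), and the pair differences ran from 0.08 to 0.20 with the smallest SD among the 9 subunits, 0.04. The adjusted p of DESeq2 with the block was 0.0688.

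Psmd3 (ENSMUSG00000017221, chr11:98682554-98695979, plus strand), a PCI subunit that Sem1 contacts in yeast, was the most abundant lid transcript. It had 172, 180 and 188 CPM in Psmb8 libraries, 156, 161 and 178 CPM in Psmb5 libraries and 161, 162 and 175 CPM in mSc libraries. Only the top of the mSc and Psmb5 ranges, their replicate 6 libraries, reached into the Psmb8 range. The Psmb8 mean was 9.11% above the mSc mean, and the blocked log2 fold change was 0.13 (SE 0.03). The adjusted p with the block was 0.0985 by edgeR and 0.0326 by DESeq2. All 6 pairs were higher, from 0.04 in pair 6 to 0.17 in pair 4.

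Psmd6 (ENSMUSG00000021737, chr14:14112174-14120984, minus strand), the PCI subunit next to Psmd3, had 60.4, 64.2 and 76.2 CPM in Psmb8 libraries, 57.4, 61.1 and 67.8 CPM in Psmb5 libraries and 57.4, 59.3 and 64.1 CPM in mSc libraries. Replicate 4 stood above the other Psmb8 libraries, and the groups overlapped. The mean was 8.88% higher in Psmb8 than in mSc cultures, in 6 of 6 pairs (blocked log2 fold change 0.12, SE 0.04, adjusted p 0.199 by edgeR).

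The remaining 3 subunits were closer to the mSc libraries. Psmd13 (ENSMUSG00000025487, chr7:140881968-140898643, plus strand), a PCI subunit, averaged 78.6 ± 6.01 CPM in Psmb8 libraries, 75.6 ± 4.05 CPM in Psmb5 libraries and 74.1 ± 2.36 CPM in mSc libraries (SD, n = 6 each), with a blocked log2 fold change of 0.08 (SE 0.04, adjusted p 0.464 by edgeR) in Psmb8 against mSc cultures. Its locus overlaps Sirt3 on the opposite strand and a processed pseudogene, and whether the counting used strand is not known, so its counts may be shared. Psmd3, Psmd12 and Psmd14 also overlap annotated noncoding genes. Psmd8 (ENSMUSG00000030591, chr7:29174188-29180701, minus strand), which in yeast is the last subunit to join the lid, averaged 87.0 ± 3.85 CPM in Psmb8, 84.9 ± 7.13 CPM in Psmb5 and 84.1 ± 6.21 CPM in mSc libraries. Its blocked log2 fold change in Psmb8 against mSc cultures was 0.05 (SE 0.04), with 4 of 6 pairs higher, and its groups overlapped almost fully.

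Sem1 (ENSMUSG00000042541, chr6:6557294-6578663, minus strand) encodes a small acidic protein that tethers PCI subunits during lid assembly in yeast and also belongs to other complexes. It had 20.1, 22.6 and 25.4 CPM in Psmb8 libraries, 20.05, 22.6 and 24.1 CPM in Psmb5 libraries and 20.3, 22.0 and 26.6 CPM in mSc libraries. The 3 groups covered nearly the same range. The blocked log2 fold change in Psmb8 against mSc cultures was 0.02 (SE 0.05, adjusted p 0.931 by edgeR), and 3 of 6 pairs were higher. The Sem1 window held no CTTCCG. The 6 lid genes whose windows held it had log2 fold changes from 0.05 (Psmd8) to 0.16 (Psmd14), and Psmd3 and Psmd7 had no window. The motif was chosen after these windows had been read, and Sem1 was the only lid gene whose window lacked it. Among windows of the other proteasome subunits, 61.9% of 21 held it. All 6 base ATPases, all 4 base scaffolds and receptors and all 13 core subunits had log2 fold changes above 0 in that comparison. Whether the motif goes with the fold changes was not tested.

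**Figure D2:**
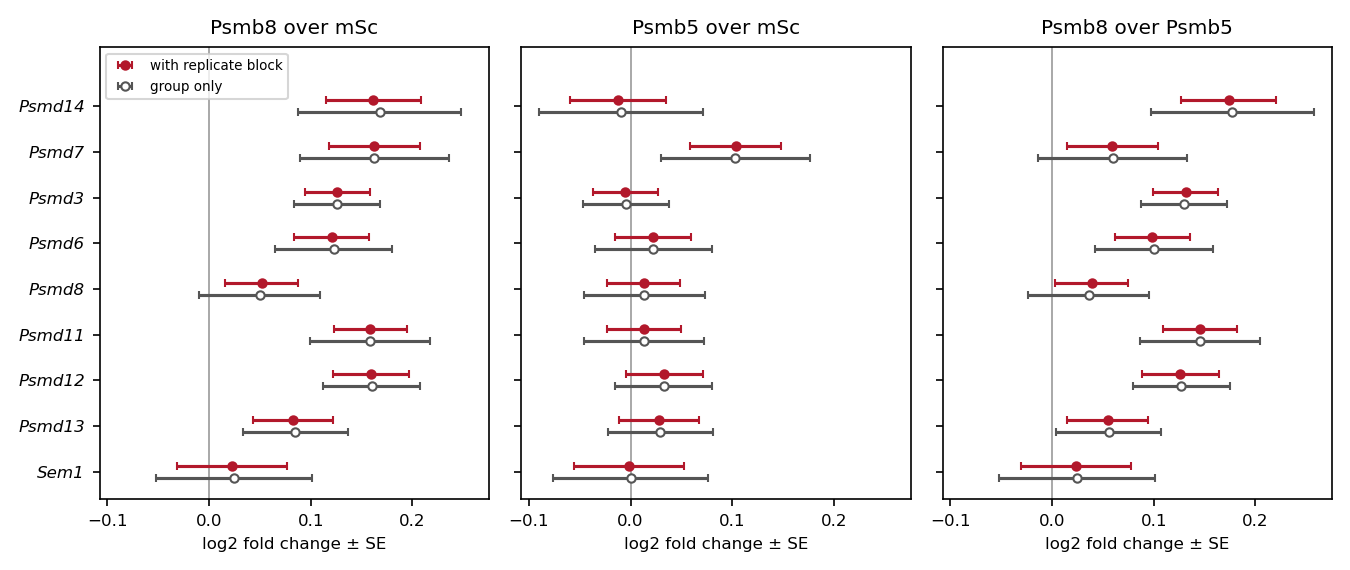
Log2 fold change of each lid subunit, with bars of 1 SE, in the 3 comparisons. Filled points are from the fit with the replicate block and open points from the fit with group only. Psmd7, Psmd11, Psmd12 and Psmd14 lie near 0.16 in Psmb8 against mSc cultures, and Sem1 lies at 0.02.

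Psmb5 cultures differed little from mSc cultures in lid transcripts. These comparisons share the mSc libraries with the ones above. The log2 fold changes were above 0 for 6 of 9 subunits, against 51% of all tested genes, with a median of 0.01 against 0.00182 over all tested genes. Leaving Psmd7 aside, the values ran from -0.01 for Psmd3 and Psmd14 to 0.03 for Psmd12 and Psmd13. No lid subunit was called by edgeR or DESeq2 with the block, where edgeR called 0.00638% and DESeq2 0.0464% of the genes they tested higher. At an unadjusted p under 0.05, 1 of 9 was higher and 0 of 9 lower with the block (3.4% and 3.47% of all tested genes), and none was higher without it (0.421%).

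Set directly against Psmb5 cultures, Psmb8 cultures again lay higher. All 9 log2 fold changes were above 0, against 49.9% of all tested genes, and their median was 0.10. The sizes were 0.17 (SE 0.05) for Psmd14, 0.15 (SE 0.04) for Psmd11, 0.13 (SE 0.04) for Psmd12, 0.13 (SE 0.03) for Psmd3 and 0.10 for Psmd6, each higher in 6 of 6 pairs. None passed the adjusted threshold in any fit, where the blocked fits called 0.0128% (edgeR) and 0.0748% (DESeq2) of the genes they tested higher; the smallest adjusted p of the blocked edgeR fit was 0.208, for Psmd3. Unadjusted, 5 of 9 were higher and 0 of 9 lower with the block, against 3.73% and 3.91% of all tested genes, and 4 of 9 were higher without it against 0.753%. Without Psmb8 replicate 4, in the fit with no block, the lid median was 0.05 in place of 0.10. Psmd7, with 0.06, was closer to 0 here than against mSc cultures. In the same pairs the astrocyte marker list had a mean log2 difference of -0.12 and the neuron list one of 0.05, and their part in the lid values was not tested.

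Pair by pair, the mean over the lid was higher in the Psmb8 library than in the mSc library in 6 of 6 pairs, by 0.14, 0.14, 0.14, 0.18, 0.08 and 0.02 in pairs 1 to 6 on the log2 scale. The mean of these differences was 0.12 ± 0.06 (SD, n = 6 pairs). The first 4 pairs were alike, and pair 6 was close to no difference. For Psmb8 against Psmb5 libraries the differences ran from 0.05 to 0.16 (mean 0.09 ± 0.05), all 6 above 0, and for Psmb5 against mSc libraries from -0.05 to 0.09 (mean 0.02 ± 0.05), with 4 above 0. Of single subunits, 6 of 9 were higher in all 6 pairs of Psmb8 against mSc libraries, where 3.18% of all tested genes were. The corresponding count was 5 of 9 in Psmb8 against Psmb5 libraries (2.3% of all tested genes) and 0 of 9 in Psmb5 against mSc libraries (2.04%).

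**Figure D3:**
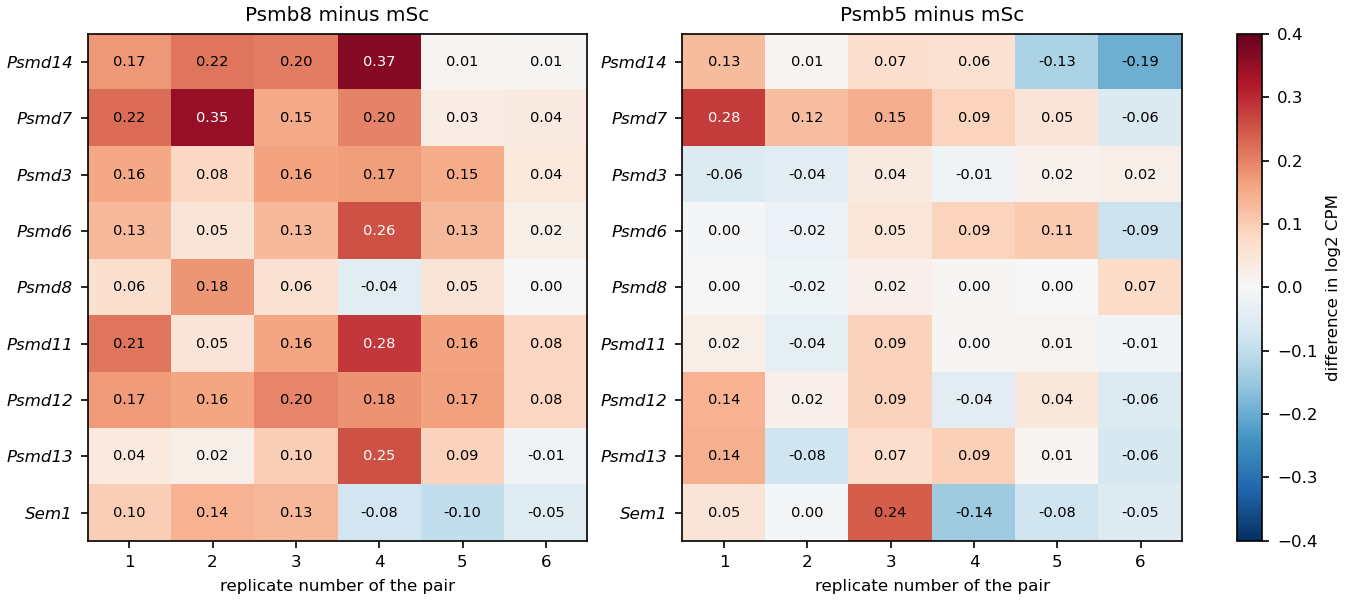
Difference in log2 CPM within each numbered pair of libraries (columns) for each lid subunit (rows). The panels are Psmb8 against mSc and Psmb5 against mSc. Red is higher in the first-named group and blue is lower. The Psmb8 against mSc panel is red in all 6 pairs for Psmd3, Psmd6, Psmd7, Psmd11, Psmd12 and Psmd14, while Sem1 is red in pairs 1 to 3 and blue in pairs 4 to 6.

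No lid subunit had groups that did not overlap in any comparison; 0.0702%, 0.0255% and 0.0447% of all tested genes did in the upward direction in Psmb8 against mSc, Psmb5 against mSc and Psmb8 against Psmb5 cultures. In a test between the 6 numbers, 6 of 9 subunits had an adjusted p under 0.05 by edgeR, close to the 64.3% of all tested genes that did. Psmd14 had the smallest adjusted p among them, 0.00133, and Psmd3, Psmd12 and Psmd13 were not called. Replicate 4 had the highest mean for 7 of 9 subunits. Without replicate 4, 3 of 9 were called. The share of all tested genes called in that fit is not given here, so the lower count cannot be read as particular to the lid.

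The lid without replicates 3 and 6, which carried the interferon-stimulated genes, had 6 of 9 subunits higher at an unadjusted p under 0.05 in Psmb8 against mSc cultures with the block, against 4.43% of all tested genes. Without replicate 4 the count was 6 of 9, against 5.34%. The blocked lid medians were 0.14 and 0.12 in these 2 fits. No lid subunit was called by edgeR in either.

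The other subunits of the 26S proteasome also had log2 fold changes above 0 in Psmb8 against mSc cultures. The lists of related genes below were chosen with earlier results of these data known. Of the 6 base ATPases, which unfold the substrate, 1 was called higher in Psmb8 against mSc cultures with the block: Psmc5 rose by 0.20 on the log2 scale, with an SE of 0.04 and an adjusted p of 0.0332 by edgeR, and no ATPase was called without the block. DESeq2 with the block called 3 of the 6 higher. The median of the 6 was 0.16, and all 6 had an unadjusted p under 0.05, the largest p being that of Psmc6 (0.12, adjusted p 0.232 by edgeR). The 4 base scaffolds and ubiquitin receptors had a median of 0.12, with none called by edgeR and 1 called higher by DESeq2 with the block, from 0.10 for the scaffold Psmd2 to 0.15 for the scaffold Psmd1, whose adjusted p values were 0.242 and 0.0893 by edgeR. The 13 subunits of the 20S core other than Psmb5 had a median of 0.12, with 12 at an unadjusted p under 0.05 in the blocked edgeR fit. None of the 13 was called by edgeR, and 2 were called higher by DESeq2 with the block. The values ran from 0.06 for Psma7 to 0.19 for Psmb2 (adjusted p 0.0532 by edgeR). In Psmb5 against mSc cultures the medians of the ATPases and of the core were 0.03 and 0.04.

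**Figure D4:**
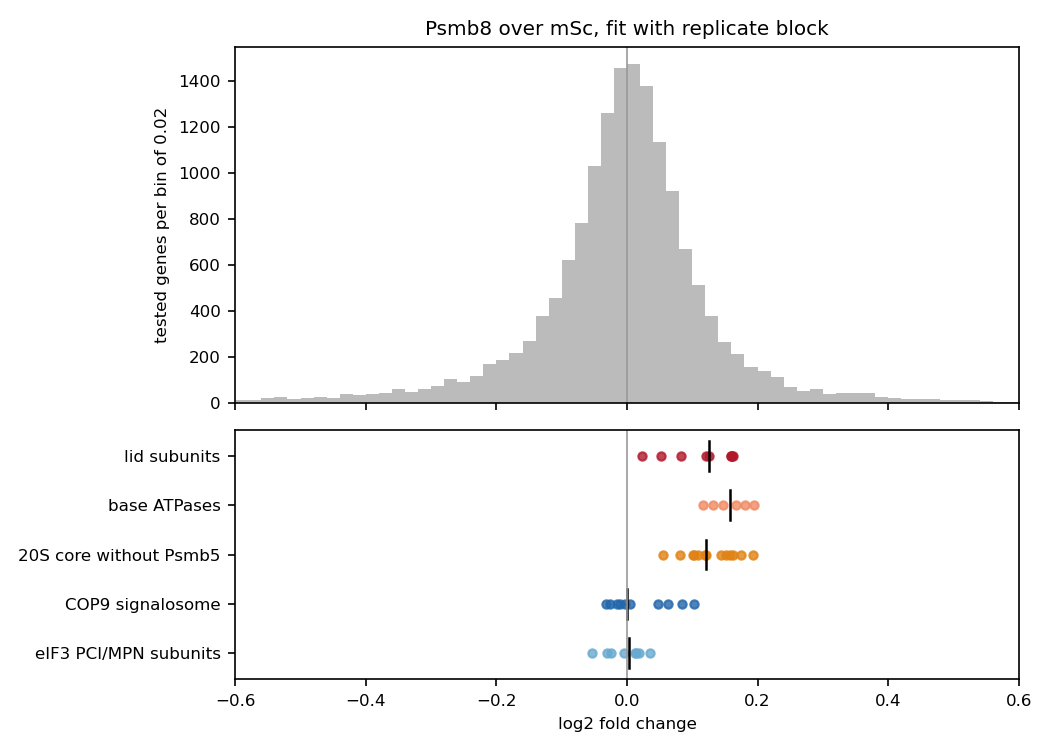
Log2 fold changes in Psmb8 against mSc cultures (horizontal axis, fit with the replicate block). The upper panel is the distribution of all tested genes, and the lower shows lid subunits and related gene lists. Each point is a gene, and each black tick is the median of its list. Lid, base and core genes sit mostly between 0.05 and 0.20, while COP9 signalosome and eIF3 genes centre on 0.

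Of the 8 tested assembly chaperones, none was called by edgeR or by DESeq2 with the block, and their median was 0.08; Pomp, which matures the 20S core, had 0.14 (adjusted p 0.212 by edgeR) and Psmg3 had -0.02. Usp14, a deubiquitinase that docks on the base, had 0.13 (adjusted p 0.280 by edgeR) and Uchl5, which docks on Adrm1, had 0.05. The 7 transcription factors of proteasome genes and the enzymes that process them had a median of 0.00513 with none called. Ngly1, the enzyme that removes glycans from the Nfe2l1 product, had the smallest p of the list, with 0.12 and an adjusted p of 0.569 by edgeR. Nfe2l1 itself had a log2 fold change of -0.00106 in its transcript, with an adjusted p of 0.996 by edgeR; transcript level does not measure the factor's processing or activity.

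Complexes built on the lid's plan had medians near 0. The 10 COP9 signalosome genes had a median log2 fold change of 0.000495 and the 8 eIF3 genes one of 0.00373, with none called in either list. Cops5, the deneddylase that is the counterpart of Psmd14 in the signalosome, was the one COP9 gene with an unadjusted p under 0.05 (0.10, adjusted p 0.280 by edgeR). Another 4 deubiquitinases of the JAMM or MPN type had a median of -0.03. The difference between these lists and the lid was not tested.

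The neuron marker list was higher in the Psmb8 than in the mSc library in 6 of 6 pairs, by 0.05 ± 0.02 on the log2 scale (SD, n = 6 pairs). With the block, 4 of its 10 genes (Tubb3, Neurod6, Gad1 and Gad2) had an unadjusted p under 0.05 upward, against 5.44% of all tested genes. Rbfox3, Map2 and Slc17a7 lay below 0, and the median log2 fold change of the list was 0.03. Summed neuron markers ran from 4444 to 5506 CPM in Psmb8 libraries, 4267 to 5407 CPM in Psmb5 libraries and 4280 to 5500 CPM in mSc libraries. The astrocyte list was higher in 2 of 6 pairs, with a mean difference of -0.05 ± 0.19. In Psmb8 against Psmb5 libraries, where the lid also lay higher, the neuron list was again higher in 6 of 6 pairs, by 0.05 ± 0.03. The astrocyte list was higher in 1 of 6 of those pairs, with a mean difference of -0.12 ± 0.12. All 8 astrocyte genes had a log2 fold change below 0 there, where 49.9% of all tested genes were above 0. With the block, 3 had an unadjusted p under 0.05, against 3.91% of all tested genes lower, and none was called. Gfap, the intermediate filament of astrocytes, had -0.35 (SE 0.09, adjusted p 0.225 by edgeR). Of 8 oligodendrocyte lineage genes, 0 were above 0 there and 0 had an unadjusted p under 0.05. Their list was higher in 4 of 6 of those pairs, with a mean difference of -0.10 ± 0.34. Against mSc libraries, interferon-stimulated genes were higher in 1 of 6 pairs, with a mean of -0.33 ± 0.41, and Gbp2, an interferon-induced GTPase, fell by 0.86 on the log2 scale with the block (adjusted p 0.00599 by edgeR). The part of these shifts in the lid values was not tested.

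Per kilobase of exon, lid transcripts were uneven. With the union of a gene's exons as its length, the mean level over the 18 libraries was 34.2 ± 1.96 CPM per kb for Psmd3, 27.9 ± 1.86 for Psmd8, 26.7 ± 2.57 for Psmd7, 22.5 ± 1.35 for Psmd13, 22.3 ± 1.66 for Psmd6, 19.8 ± 2.23 for Psmd14, 18.4 ± 1.25 for Psmd12, 12.4 ± 1.03 for Psmd11 and 6.38 ± 0.542 for Sem1 (SD). Psmd8 and Psmd7, Psmd13 and Psmd6, and Psmd14 and Psmd12 were neighbours in this order that differed by less than the larger of their SDs. The other neighbours differed by more than that with this length. Psmd3 was highest and Sem1 lowest under all 3 definitions of length, and the ratio of highest to lowest was 5.36 with the union of exons, 5.84 with the longest transcript and 5.15 with the principal transcript. Between these ends the order changed: under the same definitions in turn, Psmd7 ranked 3, 5 and 5, and Psmd6 ranked 5, 2 and 3.

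**Figure D5:**
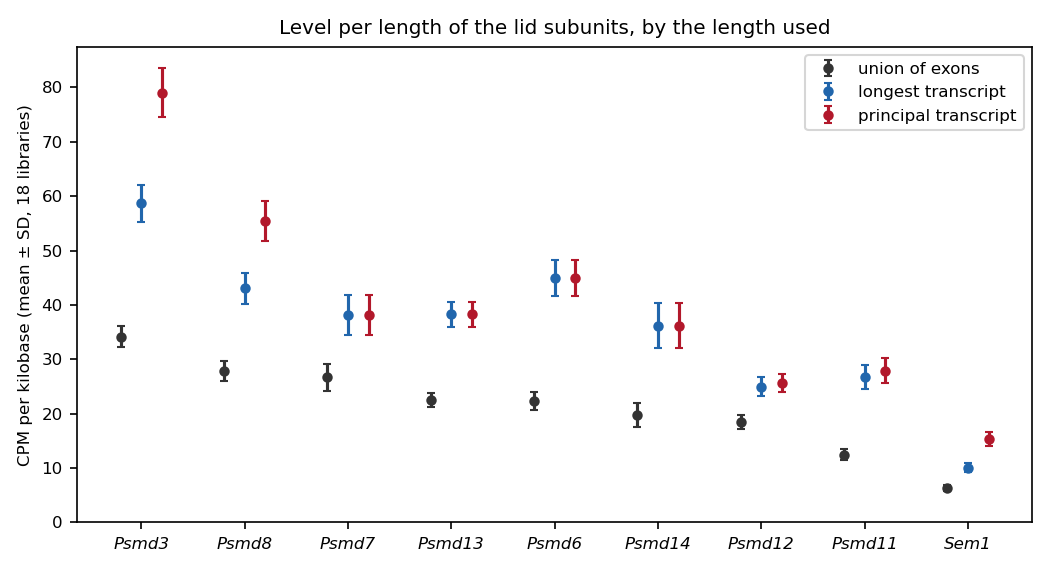
Level of each lid subunit in CPM per kb under 3 definitions of length: union of exons, longest transcript and principal transcript. Points and bars are the mean and SD over all 18 libraries. The order from Psmd3 at 34.2 down to Sem1 at 6.38 CPM per kb is that of the means with the union of exons.

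Across the 18 libraries most lid transcripts varied together. The Pearson correlation of log2 CPM between a subunit and the mean of the other 8 was 0.92 for Psmd12, 0.90 for Psmd6 and Psmd14, 0.83 for Psmd13, 0.81 for Psmd11 and Psmd7, 0.72 for Psmd8, 0.54 for Psmd3 and 0.28 for Sem1. Sem1 was the subunit that followed the others least, with pairwise values down to -0.21 against Psmd3. These libraries share groups and replicate numbers, so the values describe this set. Among 14313 other genes the 8 most correlated with the lid mean were Psmc2 (0.90), Pomp (0.90), Got1 (0.89), Psmb4 (0.89), Psmc1 (0.89), Psma5 (0.89), Ubxn4 (0.88) and Ppp4r2 (0.88). Of the 23 other proteasome subunits, 14 were among the 100 most correlated genes, and their median correlation was 0.79 against 0.02 over all genes; the core subunit Psma3 was lowest, with 0.31.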

How the data were processed

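Gene counts were measured by poly(A)-selected RNA sequencing in 18 libraries, per the labels' protocols. The values used are raw counts of reads by Ensembl gene ID, as deposited, with 1 column per library. STAR 2.4, DESeq2 and the builds GRCm39 and mm10 are named in the submitters' processing notes without their roles. How genes were counted (program, strand, reads with several places) is not given in the sources used here. Columns were matched to libraries by title and grouped by treatment tag. Symbols were matched to 42462 of 43629 IDs. Gene coordinates and lengths came from GENCODE's annotation of GRCm38, which may differ from the build counted on, and start regions from RefSeq.

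Genes were filtered with filterByExpr, scaled with TMM and fitted over all 18 libraries with edgeR 4.0.16 in R 4.3.3, with group as the factor and a quasi-likelihood test. The Benjamini-Hochberg adjustment ran over all 15671 tested genes, and the threshold was 0.05. DESeq2 1.42.0 and limma-voom 3.58.1 were alternatives. The adjusted p of a gene that DESeq2 filtered out was left missing. Log2 CPM used a prior count of 2.

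Libraries with the same number were correlated in their deviations from the group means in all 18 pairs (r from 0.447 to 0.729). The 90 pairs of unlike number had r from -0.535 to 0.648, so the ranges overlapped. Their mean, -0.119, is made negative by the removal of the group means and is no separate check. From the same-number correlations the number was treated as a pairing, and values from a fit with the number as a block are given. With the block, edgeR's biological coefficient of variation was 5.94%, against 17.9% without. No pair of libraries in a group looked like a repeated deposit, with a chi-square per degree of freedom of at least 2.80 over 45 pairs. Only the edgeR fits with and without the block were tried on simulated data, and only for Psmb8 against mSc cultures. The other fits, DESeq2 and limma-voom included, were not.

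The subunits, the related gene lists, the markers and the tests were chosen with earlier results of these data known. Every lid subunit is named. Of each other proteasome list the text names the genes with the smallest and the largest p in Psmb8 against mSc cultures with the block. Any gene called by edgeR is named too, while genes called only by DESeq2 are not all named. Cops5, Gbp2, Gfap and the single neuron and microglia markers were named after their values were seen. At these totals, every lid subunit had at least 330 counts in every library; for the lowest of them, such as Sem1, counting error is a large part of the spread between libraries. Alternatives were other normalizations, no low-count filter, other tools, and leaving out libraries or replicate numbers. The assembly chaperone Paaf1 was not analysed here.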

Additional observations from a re-analysis of the deposited data

Results flagged for a closer look

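In 2 of 27 groups of 6 libraries examined, the highest library stood apart from the rest of its group; chance alone marks about 5% of groups. Both were in Psmb8 replicate 4, where Psmd6 had 76.2 CPM and Psmd7 had 73.9 CPM. In each, the gap to the next library was 0.645 of the group's range. The same library had the highest summed lid level of all 18, 761 CPM.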

How the results depend on the processing

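The median over the lid in Psmb8 against mSc cultures was above 0 in all 31 alternatives, from 0.11 to 0.15, and no lid subunit was called except the 2 called by the replicate block with DESeq2. In Psmb5 against mSc cultures the median ran from -0.00381 to 0.04. In Psmb8 against Psmb5 cultures it ran from 0.053, without Psmb8 replicate 4, to 0.12. The count of subunits that differed between replicate numbers ran from 3, without replicate 4, to 6. The shares of all tested genes in these alternatives are not given here.

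Counts of all genes called moved with the block and with the low-count filter. For Psmb8 against mSc cultures, 1 gene was called without the block and 51 with it; DESeq2 called 2 without the block and 138 with it, and blocked fits gave 62 with limma-voom, 321 with no low-count filter, 56 with DESeq2 size factors and 2 without replicates 3 and 6. Leaving out a library gave 1 to 2 without the block, and leaving out numbers 1 to 6 in turn gave 57, 19, 9, 59, 41 and 19 with it. For Psmb5 against mSc cultures, 1 gene was called with and without the block; blocked fits gave 13 with DESeq2, 140 with no filter, 2 without replicates 3 and 6, and 1 to 3 without a number. For Psmb8 against Psmb5 cultures, 2 were called without the block and 6 with it, 4 by DESeq2, and 26 (DESeq2), 7 (limma-voom), 166 (no filter), 6 (size factors), 4 (without 3 and 6) and, without numbers 1 to 6 in turn, 4, 4, 4, 20, 5 and 4 with it. The causes were not tested. The alternatives with no filter under the block, the size factors under the block and the fits without replicates 3 and 6 were chosen after seeing the data. The fold changes of the lid, near 10% of the level, lie close to the spread between libraries.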

Other observations

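The level of the Psmb8 transgene and the lid difference can be set side by side by pair. Psmb8 had 1028, 546, 1038, 796, 859 and 1056 CPM in Psmb8 replicates 1 to 6, and the mean lid difference from the mSc library of the same number was 0.14, 0.14, 0.14, 0.18, 0.08 and 0.02 on the log2 scale. The library with the most Psmb8 transcript, replicate 6, had the smallest lid difference, and the library with the least, replicate 2, had 0.14. Summed lid levels were 691 CPM in Psmb8 replicate 6 and 676 CPM in mSc replicate 6, the highest mSc library. In replicate 2 they were 673 CPM (Psmb8) and 617 CPM (mSc). A relation between transgene level and lid difference was not tested.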
